A study of Mus musculus with 32 samples.

Results

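Ion channel transcripts of the hippocampus were compared across 8 inbred mouse strains. The channel genes were taken as every probe set whose single gene symbol in the array's annotation starts with Kcn (potassium), Scn (sodium), Cacn (calcium), Hcn (hyperpolarisation-activated cation) or Clcn (chloride), except Kcnj3, Kcnj6 and Kcnj9. This gave 84 probe sets for 66 genes, out of 12422 probe sets that are not controls. A probe set is the group of short probes that reads 1 transcript on the Affymetrix mouse array U74Av2. Of the 84, 46 read potassium, 9 sodium, 13 calcium, 3 HCN and 13 chloride channel genes. The prefixes also bring in genes that form no channel pore, namely auxiliary subunits, the chloride-proton exchangers among the Clcn genes and the splicing factor Scnm1. All are counted as channel genes here.

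The strains were C57BL/6J and DBA/2J, SJL/J and FVB/NJ, BALB/cByJ and A/J, and C3H/HeJ and _129S1/SvImJ_. All were untreated inbred mice, so strain is the only biological factor that the labels vary, and there is no control strain. The titles also carry a day. Arrays 3 and 4 of BALB/cByJ have later days than all other arrays, except that array 4 of FVB/NJ shares the day of BALB/cByJ array 3. For those BALB/cByJ arrays strain and day can hardly be told apart. RNA of the whole hippocampus was pooled from 6 mice of a strain, with 1 pool for each strain, and the sources used here give neither age nor sex. The pool's single cDNA was used for 2 separate syntheses of labelled cRNA (arrays 1 and 2 carry the first, arrays 3 and 4 the second), which makes 4 arrays for each strain and 32 in all. The preparation was therefore the unit of replication (n = 2 for each strain), and p-values measure the spread between preparations and hybridisations, not that between animals. In a tissue extract, fewer cells of a type cannot be told apart from less RNA per cell.

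Voltage-gated channels open and close with the membrane potential and set how neurons fire. Sodium channels carry the upstroke of the action potential, potassium channels repolarise the membrane and hold it at rest, and calcium channels couple depolarisation to transmitter release and gene expression. HCN channels open on hyperpolarisation and shape the integration of dendritic input in pyramidal cells, and the ClC family holds both chloride channels of the plasma membrane and chloride-proton exchangers of endosomes and lysosomes.

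The arrays differed in ways that bear on the strain comparison. Median signal lay between 29.4 and 43.6, and the precision is limited by the number of arrays. Control probes for the sense strand of beta-actin and Gapdh gave a mean log2 signal of 6.95 to 7.84 on 11 arrays and of 4.91 to 5.64 on the other 21. The 11 comprised every BALB/cByJ array (4), the first preparation of SJL/J, C3H/HeJ and A/J (2 arrays from each), and array 1 of FVB/NJ. Array 2 of FVB/NJ, which the series design puts in the first preparation, was low at 5.33 and carries a day in its title that the other strains, except BALB/cByJ, have for array 3. All 10 listed markers of granule and pyramidal neurons were on the array and above the limit of the test, and no marker of any of 11 cell type or region lists was at 0. No detection calls were used here, so whether a probe set was above background was not analysed.

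Of the 84 channel probe sets, 51 for 42 genes were among the 7453 with the highest mean log2 signal and entered the test, a limit at a signal of 21.3. The tested ones were 27 potassium, 3 sodium, 8 calcium, 3 HCN and 10 chloride probe sets. The 33 left out had a mean log2 signal of 0.43 to 4.28, and 24 genes had no tested probe set. Among these were Scn3a, Scn7a, Scn9a and Scn10a, the calcium channel pores Cacna1e, Cacna1h and Cacna1s, the muscle subunit Cacng1, the exchanger Clcn5, and 14 potassium channel genes, 6 of them inward rectifiers (Kcnj1, Kcnj2, Kcnj5, Kcnj8, Kcnj12 and Kcnj15). Scnm1 was left out too. A suffix such as _s_at, _f_at, _r_at or _g_at marks a probe set that can read more than 1 transcript, and 9 of the 51 carry one, so their gene assignment is uncertain. Levels are log2 of the deposited signal and are compared between strains for 1 probe set at a time, never between probe sets.

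Across strains, 4 channel probe sets for 4 genes differed by limma's moderated F-test (adjusted p under 0.05 over all 7453). These were the chloride-proton exchangers Clcn3 and Clcn4, the potassium channel beta subunit Kcnab2 and the calcium-activated potassium channel Kcnma1. They were 7.84% of the 51, against 4.58% of all tested probe sets. With the preparation number as a block 15 of the 51 (29.4%) passed, against 18.9% of all. At an unadjusted p under 0.05 there were 14 of the 51 (27.5%), against 15.7% of all.

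By ion, 2 of 27 potassium (7.41%) and 2 of 10 chloride probe sets (20%) passed the F-test, and 0 of 3 sodium, 0 of 8 calcium and 0 of 3 HCN probe sets did. In those last 3 groups the unadjusted counts were 0, 2 and 1, and the fit with the block passed 1, 3 and 1. That fit passed 8 potassium and 2 chloride probe sets. The median distance between the highest and the lowest strain mean was 0.83 for potassium, 1.08 for sodium, 0.65 for calcium, 0.54 for HCN and 0.74 for chloride channels on the log2 scale. It was 0.81 for all 51 and 0.68 for all tested probe sets. A distance of 2-fold or more was measured for 17 of the 51 (33.3%), against 22.2% of all tested, in 9 potassium, 2 sodium, 2 calcium, 0 HCN and 4 chloride probe sets. Of these 17, 4 passed the F-test. The 17 include Kcnh1, Kcnc1, Cacna1g and Clcn1, whose mean log2 signals of 4.41 to 4.80 were not far above the limit of the test. No difference between ion groups was tested.

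**Figure D1:**
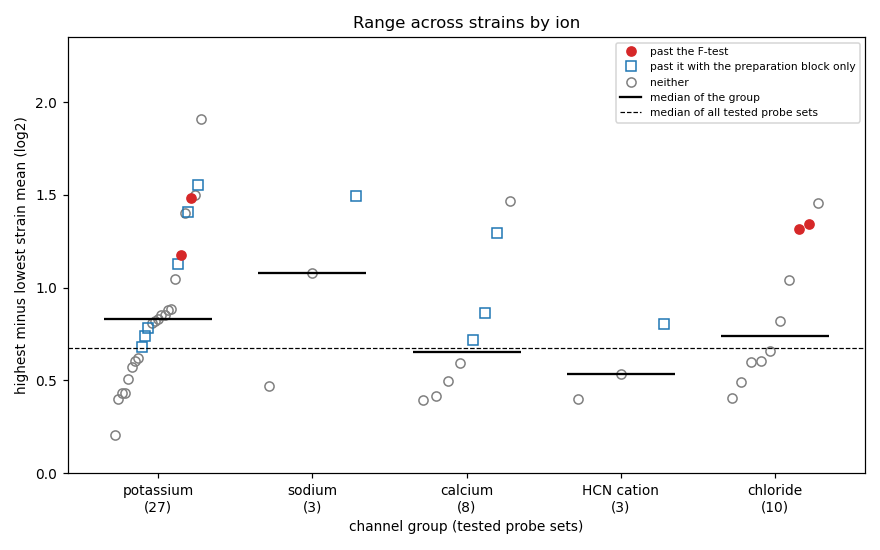
Distance between the highest and the lowest of the 8 strain means (log2) for each tested channel probe set, by ion, with the median of each group as a solid line and that of all tested probe sets (0.68) dashed. The 4 filled points passed the F-test, the squares passed it only with the preparation block, and the widest point, Kcnh1 at 1.91, passed neither.

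**Figure D2:**
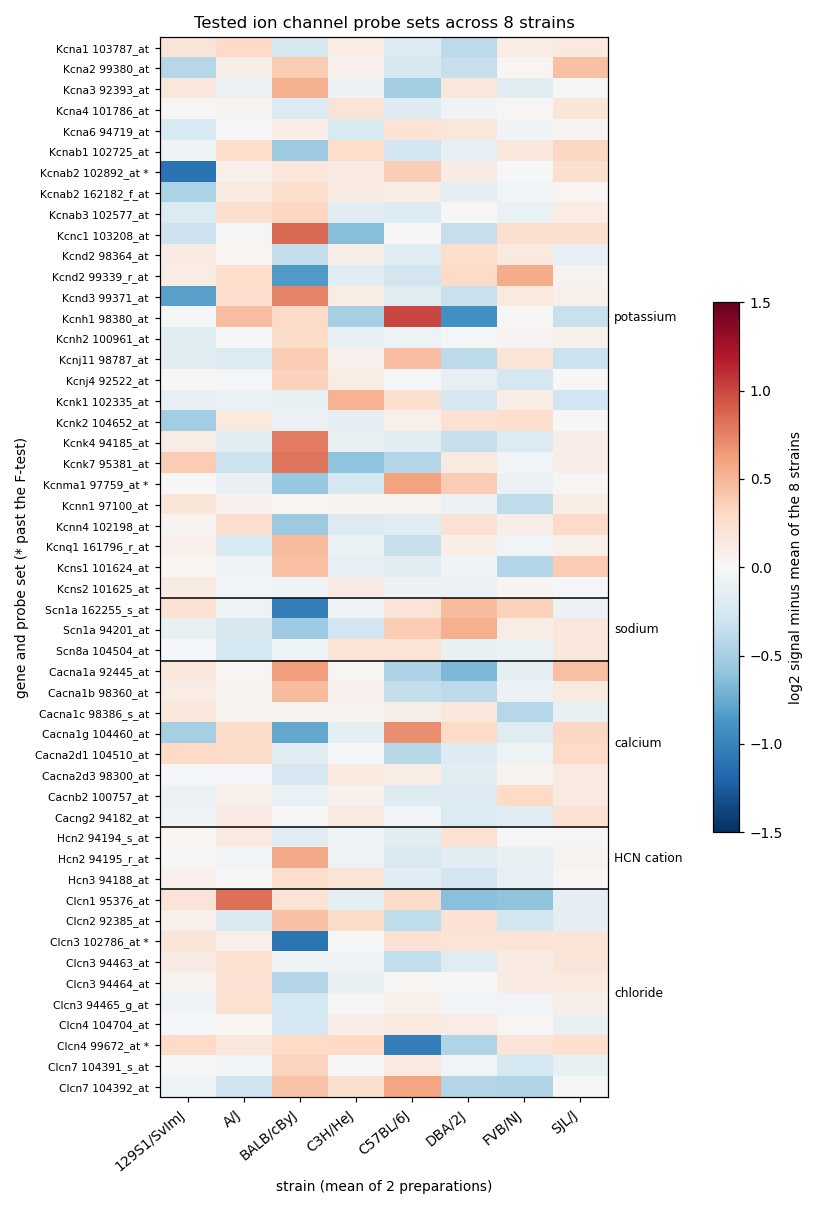
Strain means of the 51 tested channel probe sets as log2 signal minus the mean of the 8 strains, with rows ordered by ion and an asterisk on the 4 past the F-test. Clcn3 is low in BALB/cByJ, Clcn4 in C57BL/6J and Kcnab2 in _129S1/SvImJ_, each on the 1 probe set with an asterisk.

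The start regions of 4 genes are shown because 1 probe set of each passed the F-test. The sequences were taken from RefSeq's table for the build GRCm38.p6 and run 5′ to 3′ from 250 bases before the most upstream listed start to 30 bases after it. That assembly represents C57BL/6J, so no difference between strains can be read from them. All 4 genes lie on the minus strand, Clcn3 at chr8:60983282-60983561, Clcn4 at chr7:7299528-7299807, Kcnab2 at chr4:152477520-152477799 and Kcnma1 at chr14:24004176-24004455. Capitals mark matches on either strand to the cAMP response element TGACGTCA, the GC box GGGCGG, the CCAAT box CCAAT and the TATA box TATAAA, where overlapping GC boxes run together.
Clcn3: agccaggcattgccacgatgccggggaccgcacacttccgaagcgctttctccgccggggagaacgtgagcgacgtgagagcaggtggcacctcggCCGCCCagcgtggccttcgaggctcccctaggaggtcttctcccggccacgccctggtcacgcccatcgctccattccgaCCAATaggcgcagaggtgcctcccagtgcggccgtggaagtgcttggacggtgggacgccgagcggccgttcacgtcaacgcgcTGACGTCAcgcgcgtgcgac
Clcn4: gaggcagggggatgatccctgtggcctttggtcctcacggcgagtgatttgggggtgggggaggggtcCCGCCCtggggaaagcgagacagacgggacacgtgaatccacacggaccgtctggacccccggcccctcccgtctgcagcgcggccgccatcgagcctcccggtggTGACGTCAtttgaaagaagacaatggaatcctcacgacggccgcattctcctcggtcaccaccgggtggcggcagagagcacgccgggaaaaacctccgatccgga
Kcnab2: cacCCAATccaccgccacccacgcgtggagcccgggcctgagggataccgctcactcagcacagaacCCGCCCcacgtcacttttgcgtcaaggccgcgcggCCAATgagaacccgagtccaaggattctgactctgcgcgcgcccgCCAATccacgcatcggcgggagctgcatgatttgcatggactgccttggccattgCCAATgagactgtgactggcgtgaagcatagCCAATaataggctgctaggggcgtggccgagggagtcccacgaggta
Kcnma1: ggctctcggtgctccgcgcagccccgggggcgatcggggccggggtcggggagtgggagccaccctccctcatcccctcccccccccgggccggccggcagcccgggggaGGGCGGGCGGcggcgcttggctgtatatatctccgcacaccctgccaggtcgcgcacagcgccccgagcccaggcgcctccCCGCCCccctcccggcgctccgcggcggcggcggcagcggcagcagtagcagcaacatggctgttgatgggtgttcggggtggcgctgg
The full cAMP response element is in the windows of Clcn3 and Clcn4, and in no other of the 34 tested channel genes with a listed start (5.9% of them, against 1.7% of all 32851 windows). A GC box was in 22 of the 34 (64.7% against 34.7%), a CCAAT box in 6 (17.6% against 36.1%) and a TATA box in 1 (2.9% against 13.1%). Median GC content was 64.8% in these windows and 52.5% in all, and Kcnma1 was at 77.9%. Each channel gene enters with 1 window, while the 32851 windows hold every listed start, so a gene can enter them more than once. The percentages are thus not on a like basis, and their differences were not tested. A match is a description of the letters and not evidence of binding.

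Clcn3 encodes ClC-3, an exchanger of endosomes and synaptic vesicles whose loss in mice leads to degeneration of the hippocampus. With 1 of its 4 tested probe sets, 102786_at, the 4 BALB/cByJ arrays read 8.64, 7.82, 7.72 and 8.81. The 28 arrays of the other strains read 9.08 at the lowest, 9.52 at the median and 9.73 at the highest, so the BALB/cByJ arrays did not overlap them. BALB/cByJ averaged 8.25 ± 0.03 (SD, n = 2 preparations), and the other strain means lay between 9.35 (C3H/HeJ) and 9.57 (C57BL/6J). The small SD hides the spread within a preparation, since the arrays of each preparation differed by more than any pair of arrays from other strains. BALB/cByJ lay 1.26 ± 0.10 (SE) below the mean of the other 7 strains on the log2 scale, which is 2.39-fold, with an adjusted p of 5.2e-06 for that contrast and of 0.00011 for the F-test (limma).

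The BALB/cByJ difference in Clcn3 was -1.28 among first preparations and -1.23 among second ones. Within the 3 title days that also held arrays of other strains it was -0.90, -1.66 and -1.78, the last against a single array. The 7 arrays of other strains with high sense-strand control signal read 9.08 to 9.60 and the 21 with low signal 9.35 to 9.73. With that signal as a covariate the difference was -1.21 (adjusted p = 0.0013).

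The other 3 probe sets of Clcn3 did not pass. On 94464_at BALB/cByJ was also the lowest strain, at 7.38 ± 0.60 against a highest mean of 8.04 in A/J, 0.51 ± 0.26 (SE) below the mean of the others (adjusted p = 0.21, and 0.0071 with the block). On 94465_g_at it was lowest as well, at 7.11 ± 0.13, and 0.30 ± 0.14 (SE) below (adjusted p = 0.16, and 0.047 with the block). On 94463_at it was not the lowest, at 7.12 ± 0.23, and C57BL/6J was, at 6.82 ± 0.42. C57BL/6J lay 0.43 ± 0.16 (SE) below the others there (adjusted p = 0.24, and 0.037 with the block). Strain means of 102786_at correlated with those of 94464_at at r = 0.88, of 94465_g_at at 0.706 and of 94463_at at 0.089. These are descriptions over 8 strains that share the same arrays. BALB/cByJ was thus the lowest strain on 3 of the 4 probe sets, and its distance was widest on the one that passed.

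**Figure D3:**
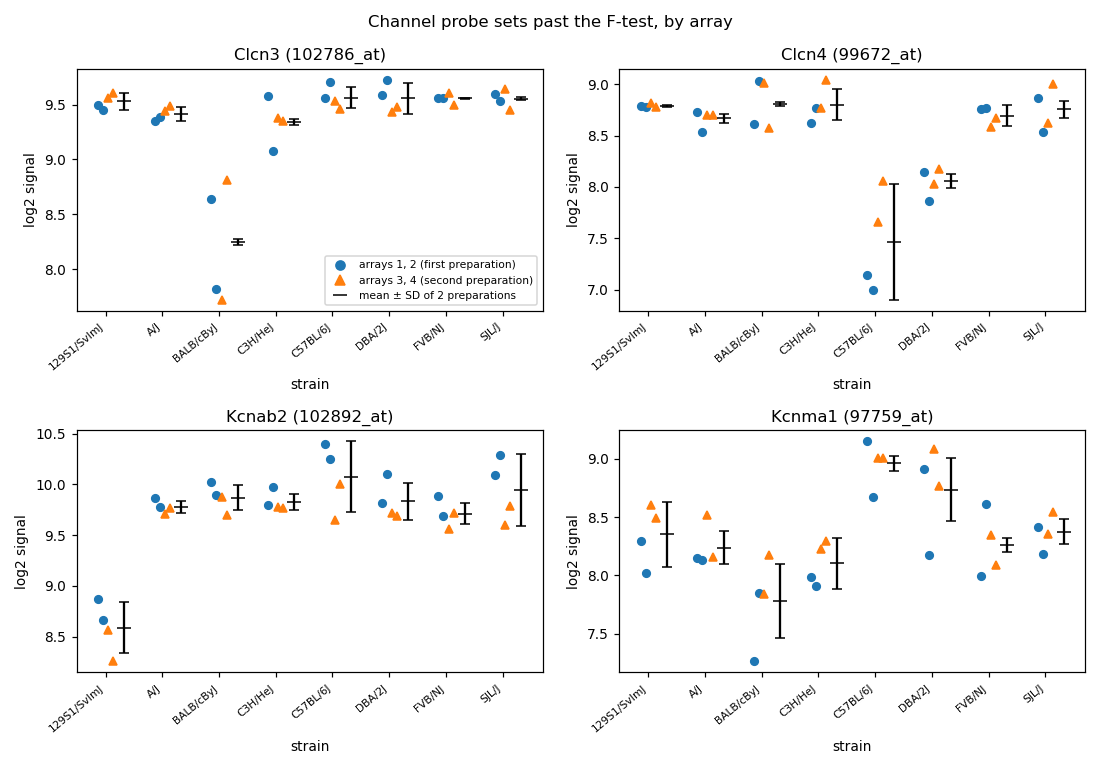
Log2 signal of the 4 channel probe sets past the F-test on all 32 arrays, with first-preparation arrays as circles, second-preparation arrays as triangles, and bars for the mean ± SD of 2 preparations. The 4 BALB/cByJ arrays for Clcn3 (7.72 to 8.81) and the 4 _129S1/SvImJ_ arrays for Kcnab2 (8.26 to 8.87) lie below every array of the other strains.

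Clcn4 encodes ClC-4, an exchanger of endosomes that can pair with ClC-3. On 99672_at the 4 C57BL/6J arrays read 7.14, 6.99, 7.66 and 8.06, and the other 28 arrays read 7.86, 8.72 and 9.05 at the lowest, median and highest. Arrays of C57BL/6J and DBA/2J overlapped, and the preparation values of C57BL/6J (7.07 and 7.86) lay below those of every other strain. C57BL/6J averaged 7.46 ± 0.56 (SD, n = 2), 1.19 ± 0.15 (SE) below the mean of the others on the log2 scale, which is 2.28-fold (adjusted p = 0.00044, and 0.0036 for the F-test, limma). The difference was -1.56 in first and -0.82 in second preparations, and -1.51, -1.59, -0.96 and -0.65 within the 4 title days.

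DBA/2J was the next lowest strain for Clcn4, at 8.05 ± 0.07 (SD, n = 2), while the remaining 6 strains lay between 8.67 and 8.81. Its arrays read 8.15, 7.86, 8.03 and 8.18. DBA/2J lay 0.51 ± 0.15 (SE) below the others, with an adjusted p of 0.16, and of 0.039 with the block. The second probe set of Clcn4, 104704_at, had a range of 0.41 (adjusted p = 0.88), with C57BL/6J highest at 7.66 ± 0.01 and BALB/cByJ lowest at 7.25 ± 0.16. Its strain means ran against those of 99672_at (r = -0.606 over 8 strains, a description), so the 2 readings of this gene disagree. Probe positions and sequences were not analysed here.

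Clcn7, the exchanger of lysosomes, had ranges of 0.60 and 1.04 on its 2 probe sets and did not pass the F-test with either (adjusted p = 0.60 and 0.77). On the first, 104391_s_at, BALB/cByJ was highest at 7.87 ± 0.13, 0.38 ± 0.15 (SE) above the others (adjusted p = 0.12, and 0.018 with the block). Of the plasma membrane channels, Clcn1, best known from skeletal muscle, had the widest chloride range at 1.45. Its A/J arrays read 5.82, 6.99, 5.48 and 4.24 and its DBA/2J arrays 4.72, 3.74, 3.80 and 4.45. The arrays of these 2 strains overlapped and the F-test did not pass (adjusted p = 0.52). Clcn2, a channel that opens on hyperpolarisation, ranged over 0.82 (adjusted p = 0.80). Both genes that passed belong to the vesicular exchangers, where 2 of 8 tested probe sets passed, against 0 of 2 for Clcn1 and Clcn2, whose unadjusted p-values were 0.16 and 0.51. This difference between the subfamilies was not tested.

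**Figure D4:**
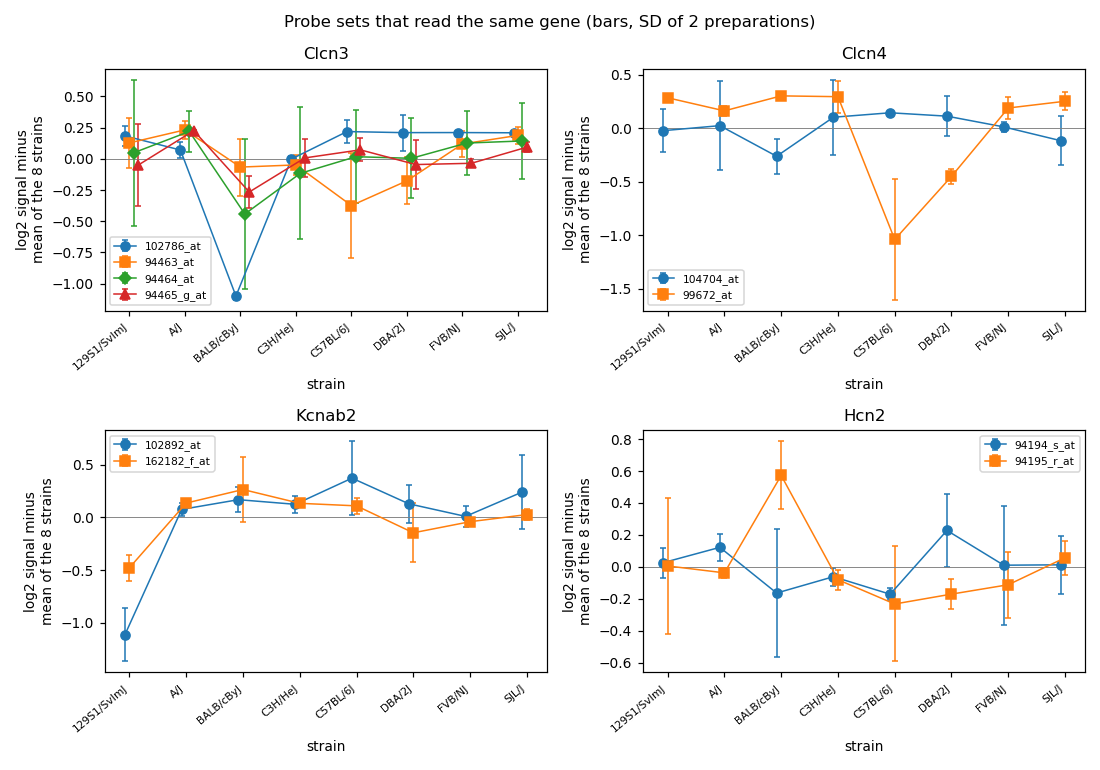
Strain means (log2 signal minus the mean of the 8 strains) for 4 genes read by several probe sets, with bars for the SD of 2 preparations. The 2 probe sets of Kcnab2 are both lowest in _129S1/SvImJ_, while those of Clcn4 part in C57BL/6J and those of Hcn2 part in BALB/cByJ.

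Kcnab2 encodes Kvβ2, a cytoplasmic subunit that helps carry Kv1 channels to axons. On 102892_at the 4 _129S1/SvImJ_ arrays read 8.87, 8.66, 8.57 and 8.26, and the 28 arrays of other strains read 9.56, 9.79 and 10.40 at the lowest, median and highest. No array overlapped. _129S1/SvImJ_ averaged 8.59 ± 0.25 (SD, n = 2), and the other strain means ran from 9.71 in FVB/NJ to 10.07 in C57BL/6J. C57BL/6J lay 0.42 ± 0.15 (SE) above the mean of the others (adjusted p = 0.21, and 0.015 with the block). The difference of _129S1/SvImJ_ from the mean of the others was -1.27 ± 0.15 (SE) on the log2 scale, 2.42-fold lower, with an adjusted p of 0.00064, and of 0.0051 for the F-test (limma). It was -1.22 and -1.33 within the preparations and between -1.11 and -1.51 within the 4 title days. Without the second _129S1/SvImJ_ preparation the F-test had an adjusted p of 0.097, while the contrast still passed.

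The second Kcnab2 probe set, 162182_f_at, put _129S1/SvImJ_ lowest too. Its arrays read 8.00, 7.98, 7.80 and 7.83, a mean of 7.90 ± 0.12 (SD, n = 2), and 1 DBA/2J array lay in that range. The difference was -0.55 ± 0.13 (SE), with an adjusted p of 0.092, and of 0.018 with the block. Strain means of the 2 probe sets correlated at r = 0.846 over 8 strains. The related subunits Kcnab1 and Kcnab3 did not pass, with ranges of 0.85 and 0.51 and F-test adjusted p-values of 0.31 and 0.68. Kcnab1 was lowest in BALB/cByJ, 0.62 ± 0.20 (SE) below the others (adjusted p = 0.061, and 0.019 with the block).

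The Kv1 pore genes that Kvβ2 pairs with did not pass the F-test without the block in any of 5 tested probe sets (Kcna1, Kcna2, Kcna3, Kcna4 and Kcna6), with 1 of the 5 under an unadjusted 0.05. That one was Kcna1, a delayed rectifier of axons, whose range was 0.68 (adjusted p = 0.070, and 0.0081 with the block). Its DBA/2J arrays read 8.18, 7.71, 8.15 and 8.04 and its A/J arrays 8.62, 8.65, 8.72 and 8.80. DBA/2J and A/J did not overlap, and DBA/2J lay 0.45 ± 0.11 (SE) below the mean of the others (adjusted p = 0.073, and 0.013 with the block). BALB/cByJ lay 0.28 ± 0.11 (SE) below (adjusted p = 0.11, and 0.036 with the block). In _129S1/SvImJ_, where Kcnab2 was low, Kcna1 stood at 8.61 ± 0.18, 0.23 ± 0.11 (SE) above the mean of the others (adjusted p = 1.0).

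Kcnma1 encodes the large-conductance BK channel, opened by calcium and voltage together. Its C57BL/6J arrays read 9.15, 8.68, 9.01 and 9.01, and its BALB/cByJ arrays 7.26, 7.85, 7.84 and 8.18. These 2 strains did not overlap, but each overlapped others: DBA/2J arrays read 8.91, 8.18, 9.09 and 8.77, and C3H/HeJ arrays 7.99, 7.91, 8.23 and 8.29. C57BL/6J was 0.70 ± 0.15 (SE) above the mean of the others (8.96 ± 0.07, SD, n = 2, adjusted p = 0.025). BALB/cByJ was 0.65 ± 0.15 (SE) below it (7.78 ± 0.32, SD, n = 2, adjusted p = 0.020), and the F-test had an adjusted p of 0.033 (limma). DBA/2J, at 8.74 ± 0.27, passed with the block alone (0.44 ± 0.15 above, adjusted p = 0.27, and 0.027 with the block). The F-test is the least stable of the 4: it was lost in 19 of 61 alternatives, with an adjusted p of up to 0.28, and without array 1 of DBA/2J it was 0.15. It was also lost without array 1 of C57BL/6J (0.094), array 2 or 3 of BALB/cByJ (0.051 and 0.086), array 1 of _129S1/SvImJ_ (0.052) or array 4 of A/J (0.05). The C57BL/6J contrast was lost without array 1 of C57BL/6J (0.088) or of DBA/2J (0.057), and without the first (0.27) or the second (0.22) C57BL/6J preparation, with differences of 0.58 to 0.74. Without the 11 arrays of high control signal it was 0.54 (adjusted p = 0.16). The BALB/cByJ contrast was lost without the first BALB/cByJ preparation (-0.43, adjusted p = 0.30). Where a strain is left with 1 preparation, it is assumed to vary like the other strains.

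The Kcnma1 signal was lower on arrays of high sense-strand control signal, but strain and preparation differ between these arrays too. The 7 arrays of other strains with high control signal read 7.91 to 8.41 (median 8.13), and the 21 with low signal 8.02 to 9.15 (median 8.51). The 7 are all from first preparations, and the 21 hold every array of C57BL/6J and DBA/2J, the highest strains, so control signal, strain and preparation cannot be told apart in these ranges. With that signal as a covariate neither strain contrast passed (0.64 for C57BL/6J, adjusted p = 0.068, and -0.52 for BALB/cByJ, adjusted p = 0.34). The small-conductance genes Kcnn1 and Kcnn4, the other calcium-activated channels tested, ranged over 0.57 and 0.83 (adjusted p = 0.83 and 0.71).

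Each strain was also set against the mean of the other 7, which gave 10 passed differences in 9 probe sets, 5 higher and 5 lower. Of these, 7 were in BALB/cByJ, 2 in C57BL/6J and 1 in _129S1/SvImJ_. BALB/cByJ was higher in 4 of 51 probe sets (background 3.11%) and lower in 3 (background 5.81%). C57BL/6J was higher in 1 (background 0.912%) and lower in 1 (background 1.37%), and _129S1/SvImJ_ was higher in 0 (background 0.349%) and lower in 1 (background 0.403%). No channel probe set passed in the remaining 5 strains by limma, where 7 (DBA/2J), 3 (FVB/NJ), 2 (A/J), 2 (C3H/HeJ) and 1 (SJL/J) had an unadjusted p under 0.05. The background in either direction was 1.44%, 0.389%, 0.537%, 0.577% and 0.55% in these strains.

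With the preparation block 31 differences passed. Of these, 19 were in BALB/cByJ (background 30.4%), 5 in C57BL/6J (background 6.63%), 4 in _129S1/SvImJ_ (background 1.84%) and 3 in DBA/2J (background 4.27%). The block passed 0 in SJL/J (background 1.41%), A/J (1.33%), C3H/HeJ (1.61%) and FVB/NJ (1.53%). The block takes the preparations as paired across strains, while the second BALB/cByJ preparation carries later days. The difference between preparations correlated at 0.301 or more between the other strains, and at 0.109 at the lowest with BALB/cByJ. Its results with the block are therefore less certain.

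The count of 10 rests on few arrays. It fell to 6 without array 2 of BALB/cByJ, without array 1 of C57BL/6J or without array 2 of FVB/NJ, to 5 without the first BALB/cByJ preparation and to 6 without the second. With arrays centred on their medians 12 passed, of which 16.7% were higher, against 50% of the 10. With the sense-strand control signal as a covariate 3 passed, all lower: Clcn3 in BALB/cByJ, Clcn4 in C57BL/6J and Kcnab2 in _129S1/SvImJ_.

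The 5 BALB/cByJ differences not yet described came from 3 potassium channels, a sodium channel and an HCN channel. Kcnd3 encodes Kv4.3, a pore of the A-type current, and its BALB/cByJ arrays read 6.41, 7.34, 7.02 and 5.75. The other 28 arrays ran from 3.54 to 6.94 with a median of 5.94, so the strains overlapped. BALB/cByJ lay 0.85 ± 0.23 (SE) above the mean of the others (adjusted p = 0.041). The lowest strain was _129S1/SvImJ_ at 5.08 ± 0.23 (SD, n = 2), where arrays of 1 preparation read 6.94 and 3.54. It lay 0.93 ± 0.23 (SE) below the others (adjusted p = 0.13, and 0.019 with the block). The range of 1.55 was the second widest among potassium channels (F-test adjusted p = 0.13, and 0.014 with the block).

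Kcnk4 encodes TRAAK, a leak channel opened by stretch and polyunsaturated lipids. BALB/cByJ arrays read 6.69, 7.49, 7.24 and 7.24, against 5.57, 6.27 and 6.89 at the lowest, median and highest of the other 28. The difference was 0.90 ± 0.19 (SE) with an adjusted p of 0.016, and the F-test had 0.18, and 0.021 with the block. Array 1 alone of the BALB/cByJ arrays lay within the others' range. Kcnk7, a silent member of the same family, read 6.11, 6.79, 5.92 and 6.18 in BALB/cByJ. The other arrays ran from 3.61 to 6.68 with a median of 5.35, and 3 of the BALB/cByJ arrays lay within them. Its difference was 0.91 ± 0.26 (SE) with an adjusted p of 0.044, and the F-test had 0.19, and 0.043 with the block.

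The remaining leak channels did not pass a strain contrast in the fit without the block. Kcnk2, which encodes the stretch-sensitive TREK-1, was lowest in _129S1/SvImJ_, with arrays at 7.12, 6.73, 7.41 and 7.45, and highest in FVB/NJ, with arrays at 7.44, 8.18, 8.18 and 8.05. The arrays overlapped, and _129S1/SvImJ_ lay 0.59 ± 0.19 (SE) below the mean of the others (adjusted p = 0.40, and 0.017 with the block). Kcnk1 ranged over 0.81 (F-test adjusted p = 0.75). Counted together, 0 of 4 Kcnk probe sets passed the F-test, against 4.58% of all tested. At an unadjusted p under 0.05 there were 2 (15.7% of all tested), and with the block 3 passed (18.9% of all tested). With 4 probe sets these shares were not compared by a test.

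Hcn2 encodes the main partner of the channel that carries the hyperpolarisation-activated current in principal cells. On 94195_r_at BALB/cByJ arrays read 10.03, 10.17, 10.48 and 10.32, and the other 28 read 9.04, 9.60 and 10.14 at the lowest, median and highest. BALB/cByJ was the highest strain at 10.25 ± 0.21 (SD, n = 2), with array 1 inside the range of the others, and lay 0.65 ± 0.16 (SE) above their mean (adjusted p = 0.023). The F-test had an adjusted p of 0.29, and of 0.04998 with the block. The second probe set, 94194_s_at, put BALB/cByJ at 6.79 ± 0.40, 0.19 ± 0.17 (SE) below the others (adjusted p = 0.49), and the strain means of the 2 ran against each other (r = -0.394 over 8 strains, a description). Both carry a suffix of uncertain assignment. Hcn3 ranged over 0.54, with BALB/cByJ highest at 7.47 ± 0.10 and DBA/2J lowest at 6.93 ± 0.44 (F-test adjusted p = 0.79).

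Scn1a encodes Nav1.1, the sodium channel best known for its place in fast-spiking interneurons. On 162255_s_at BALB/cByJ arrays read 6.08, 5.44, 6.69 and 6.75, and the other 28 ran from 6.37 to 7.99 with a median of 7.52. BALB/cByJ lay 1.17 ± 0.33 (SE) below the mean of the others (adjusted p = 0.043), and the 2 arrays of its second preparation overlapped them. The F-test had an adjusted p of 0.42, and of 0.0018 with the block. On 94201_at BALB/cByJ was again lowest, at 5.65 ± 0.09 against 6.73 ± 0.36 in DBA/2J, and 0.63 ± 0.37 (SE) below the others (adjusted p = 0.27, and 0.032 with the block). The 2 probe sets correlated at r = 0.783 over 8 strains.

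Both Scn1a readings differed by sense-strand control signal and by preparation among the strains other than BALB/cByJ. On 162255_s_at the 7 arrays of high control signal read 6.37 to 7.15 (median 6.94) and the 21 of low signal 6.78 to 7.99 (median 7.69). On 94201_at they read 4.98 to 6.26 (median 5.43) and 5.58 to 7.03 (median 6.67). The 7 arrays of high signal are all from first preparations. Among the low ones, the 7 first-preparation arrays had medians of 7.36 and 6.27 on the 2 probe sets, and the 14 second-preparation arrays 7.79 and 6.80. In _129S1/SvImJ_, low in the control on all 4 arrays, 162255_s_at read 7.02 and 6.95 in the first preparation and 7.95 and 7.99 in the second. The preparations thus differed also among arrays of low control signal. Between the 7 arrays of high signal and all 21 of low signal, control signal and preparation cannot be told apart. With the control as a covariate the BALB/cByJ difference on 162255_s_at was -0.62 (adjusted p = 0.59), and the difference of DBA/2J from BALB/cByJ on 94201_at changed from 1.08 to -0.033. Scn8a, which encodes Nav1.6 of the axon initial segment, ranged over 0.47, from 7.59 ± 0.17 in A/J to 8.06 ± 0.35 in C3H/HeJ (F-test adjusted p = 0.67).

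For Kcnk4, Kcnk7, Kcnd3 and Hcn2 the arrays of high control signal outside BALB/cByJ had medians of 6.38, 5.50, 6.20 and 9.62, and the arrays of low signal 6.27, 5.29, 5.74 and 9.5. The BALB/cByJ medians were 7.24, 6.14, 6.71 and 10.24. With the covariate the BALB/cByJ differences were 0.67, 0.80, 0.38 and 0.64, and none of the 4 passed (adjusted p = 0.34, 0.42, 0.64 and 0.27). Over all alternatives the call was lost in 4 of 61 for Kcnk4, 28 of 60 for Kcnk7, 28 of 61 for Kcnd3 and 7 of 61 for Hcn2, and in 17 of 61 for Scn1a. Leaving out array 2 of BALB/cByJ ended the calls of Kcnk4 (adjusted p = 0.064), Kcnk7 (0.092), Kcnd3 (0.11) and Scn1a (0.070). The Hcn2 call ended without array 1 of C3H/HeJ or array 2 of FVB/NJ (0.051 each). With 1 BALB/cByJ preparation left the spread is taken from the other strains, so only the differences are given. Without the first preparation they were 0.97 for Kcnk4, 0.81 for Hcn2, 0.71 for Kcnk7, 0.60 for Kcnd3 and -0.69 for Scn1a. Without the second they were 0.82, 0.50, 1.11, 1.09 and -1.65 in the same order. Compared with both preparations, those of Kcnk4 and Hcn2 were thus smaller without the second, and those of the other genes without the first.

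No calcium channel probe set passed the F-test without the block (2 of 8 had an unadjusted p under 0.05). The median range was 1.08 over the 4 tested pore genes and 0.45 over the 4 tested auxiliary subunits. Cacna1a encodes Cav2.1 (P/Q type) and Cacna1b Cav2.2 (N type), the channels of transmitter release. For Cacna1a, BALB/cByJ arrays read 6.99, 6.94, 7.82 and 7.18 and DBA/2J arrays 5.89, 6.5, 5.78 and 5.59, without overlap, a range of 1.30 (F-test adjusted p = 0.39, and 0.048 with the block). For Cacna1b, the same strains were highest and lowest, with arrays of 7.25, 7.58, 7.81 and 7.61 against 7.16, 6.73, 6.33 and 6.57. The range was 0.87 (F-test adjusted p = 0.30, and 0.043 with the block). Against the mean of the others BALB/cByJ was 0.72 ± 0.30 (SE) higher for Cacna1a (adjusted p = 0.13, and 0.026 with the block). For Cacna1b it was 0.55 ± 0.18 (SE) higher (adjusted p = 0.066, and 0.011 with the block). Arrays of the other strains filled the space between them in both genes. Outside BALB/cByJ, the 7 arrays of high sense-strand control signal had medians of 7.28 (Cacna1a) and 7.39 (Cacna1b). The 21 of low signal, among them every DBA/2J array, had 6.31 and 6.9. The BALB/cByJ median was below that of the 7 for Cacna1a (7.08) and above it for Cacna1b. Control signal, strain and preparation cannot be told apart here. With the control as a covariate the ranges were 0.602 and 0.573 (F-test adjusted p = 0.79 and 0.82).

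Cacna1g, which encodes the T-type channel Cav3.1, had the widest calcium range at 1.47 and the widest spread. C57BL/6J arrays read 4.94, 5.75, 4.92 and 4.85, and BALB/cByJ arrays 3.20, 2.58, 4.15 and 4.66 (F-test adjusted p = 0.75). Preparation values in _129S1/SvImJ_ had an SD of 1.24. The L-type pore Cacna1c ranged over 0.59 (adjusted p = 0.42). Of the auxiliary subunits, Cacna2d1, which helps bring channels to the surface and binds gabapentin, was lowest in C57BL/6J, with arrays of 6.38, 5.75, 6.5 and 6.51. It was highest in _129S1/SvImJ_, with arrays of 6.66, 7.05, 7.18 and 7.12 (range 0.72, F-test adjusted p = 0.27, and 0.048 with the block). Cacna2d3, Cacnb2 and Cacng2 ranged over 0.40, 0.49 and 0.41 (adjusted p = 0.86, 0.81 and 0.83).

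The widest range of any channel gene belonged to Kcnh1, which encodes the ether-à-go-go channel Kv10.1. C57BL/6J arrays read 5.78, 5.98, 5.26 and 5.47 and DBA/2J arrays 4.47, 2.70, 2.94 and 4.74, a range of 1.91 without overlap. C57BL/6J lay 1.14 ± 0.37 (SE) above the mean of the others (adjusted p = 0.17, and 0.048 with the block), and the F-test had an adjusted p of 0.30. Kcnc1, which encodes Kv3.1 of fast-spiking cells, ranged over 1.5. Its BALB/cByJ arrays read 4.6, 5.38, 5.87 and 5.80 and its C3H/HeJ arrays 3.19, 4.08, 4.69 and 3.69, with an F-test adjusted p of 0.54. BALB/cByJ lay 0.99 ± 0.37 (SE) above the others (adjusted p = 0.10, and 0.028 with the block). Kcnh1, Kcnc1, Cacna1g and Clcn1 had mean log2 signals of 4.62, 4.55, 4.41 and 4.80, not far above the limit of the test. Over the alternatives the smallest distances between the same strains were 0.521, 0.435, 0.346 and 0.537 in that order. Their wide ranges thus depend on the processing. The inward rectifiers Kcnj11 and Kcnj4 ranged over 0.85 and 0.60 (adjusted p = 0.58 and 0.91).

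In 3 more potassium channel genes a BALB/cByJ contrast passed with the block alone. Kcnj4 was 0.39 ± 0.24 (SE) higher (adjusted p = 0.29, and 0.039 with the block), and Kcnq1, a channel best known from heart and epithelia, 0.54 ± 0.20 (SE) higher (adjusted p = 0.10, and 0.031 with the block). On 1 of its 2 probe sets, 99339_r_at, Kcnd2, which encodes Kv4.2 of dendrites, was 0.97 ± 0.41 (SE) lower (adjusted p = 0.14, and 0.0075 with the block).

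Over all 51 tested channel probe sets, BALB/cByJ was the highest strain in 18 and the lowest in 14. Over all 7453 tested probe sets it was highest in 2096 and lowest in 2052, so it was often at an extreme there too. C57BL/6J was highest in 9 and lowest in 9 of the 51 (904 and 1328 of all tested). DBA/2J was highest in 5 and lowest in 10 (1244 and 702 of all), and _129S1/SvImJ_ highest in 2 and lowest in 8 (441 and 599 of all). SJL/J was highest in 4 and lowest in 1 (624 and 567 of all). It lay above the mean of the other strains in 38 of 51 (74.5%), against 52.4% of all tested probe sets. Its median difference was 0.11 on the log2 scale and 1 of the 51 had an unadjusted p under 0.05. DBA/2J lay above in 20 of 51 (39.2%), against 58.5% of all tested. These counts are descriptions, since the probe sets share the same arrays.

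Array to array spread took most of the variance. At the median channel probe set, strain accounted for 11% of the variance over the 32 arrays, preparation for 14.8% and array for 61.4%. The same medians over all tested probe sets were 6.73%, 20.9% and 58.3%. By ion the median share of strain was 12.6% for potassium, 6.57% for sodium, 11.1% for calcium, 0% for HCN and 11.2% for chloride channels. For the 3 sodium probe sets preparation took a median of 58.8%.

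Markers of other cell types moved in some of the strains with channel differences, and their part in these was not tested. In C57BL/6J, where Clcn4 was low and Kcnma1 high, the summed linear signal of 7 of 8 listed oligodendrocyte markers on the array was 3574 to 4905, against 2753 to 4316 in the other strains. For 7 of 10 choroid plexus and meninges markers it was 1129 to 1204 against 1440 to 2052, and for 7 of 8 microglia markers 1485 to 1565 against 1039 to 1511. In _129S1/SvImJ_, where Kcnab2 was low, the 10 granule and pyramidal neuron markers summed to 8600 to 9436, within the 6570 to 10276 of the others. Single markers also passed in C57BL/6J, among them Mag of oligodendrocytes (0.85 higher, adjusted p = 0.0029), the neuronal Nefl (1.12 higher, adjusted p = 0.0020) and Neurod1 (1.30 lower, adjusted p = 0.0028), C1qc of microglia (0.78 higher, adjusted p = 0.019) and Ttr (1.60 lower, adjusted p = 3.1e-05). In _129S1/SvImJ_ 2 single markers passed against the other strains, C1qa of microglia (lower) and Ttr of choroid plexus (higher).

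In BALB/cByJ, which holds 7 of the 10 passed channel differences, the 10 neuron markers summed to 8044 to 9073 and the 8 interneuron markers to 5498 to 6490. Both lay within the other strains, at 6570 to 10276 and 5159 to 7665. Single markers did pass in BALB/cByJ, 9 in all. Of the neuron markers, the vesicle protein Syt1 was 0.90 lower on the log2 scale (mean 9.19, adjusted p = 0.0019), Nefl 0.75 lower (adjusted p = 0.020) and Nrgn 0.45 higher (adjusted p = 0.043). Gad1, the GABA-synthesising enzyme of interneurons, was 0.51 lower (mean 9.23, adjusted p = 0.011). It was the only 1 of the 8 interneuron markers to pass in BALB/cByJ, and the median difference of that list was 0. The astrocyte markers Aqp4 and Gja1 were 0.59 and 0.60 lower, Ttr was 0.90 lower, the meningeal Col1a2 0.75 higher and the vessel marker Rgs5 1.39 higher (adjusted p = 0.0048 to 0.024). The median difference in BALB/cByJ was -0.01 over the 6 tested astrocyte markers and -0.24 over the 10 neuron markers. It was -0.35 over the 7 choroid plexus and meninges markers and 0.37 over the 4 tested vessel markers.

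Genes that act beside the channels were examined as a list of 85 known partners (anchors, pumps, exchangers, intracellular calcium channels and other ion transporters). On the array 42 of them had a probe set and 34 were tested, each read by the brightest of its tested probe sets. By that reading 2 passed the F-test (5.88%, against 4.58% of all tested probe sets), 13 with the block (38.2% against 18.9%), and 12 had an unadjusted p under 0.05 (35.3% against 15.7%). Over all 43 tested probe sets of these genes 4 passed, since the dimmer probe sets of Ank3 and Itpr2 also did. The median range by gene was 0.67, against 0.68 for all tested probe sets. By the brightest probe set, those that passed were Atp2b2, a calcium pump of the plasma membrane, and Cntn1, an adhesion molecule that binds sodium channel beta subunits. Atp2b2 ran from 6.81 in C57BL/6J, with the next lowest strain at 6.96, to 8.36 in SJL/J (adjusted p = 5.1e-05). Cntn1 was lowest in BALB/cByJ at 8.14, below all other strains at 9.09 or more, and highest in C57BL/6J at 9.85 (adjusted p = 0.0012). Ank3, the ankyrin that anchors sodium channels at the axon initial segment, ranged over 2.18 on 98477_s_at, from DBA/2J at 6.97 to A/J at 9.14 (adjusted p = 2.5e-06). On 98476_at it ranged over 0.40 (adjusted p = 0.86). Itpr2, an intracellular calcium release channel, ranged over 2.63 on 101442_f_at, from C57BL/6J at 3.54 to A/J at 6.17 (adjusted p = 0.026). On 101441_i_at it ranged over 1.87, from C57BL/6J at 4.64 to FVB/NJ at 6.50 (adjusted p = 0.092, and 0.00017 with the block).

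By genome position, several channel genes are direct neighbours in the RefSeq gene table: Scn1a, Scn9a and Scn7a, the pair Kcna3 and Kcna2, the run Kcna5, Kcna1 and Kcna6, and the pair Kcnj5 and Kcnj1. The tested neighbours among them did not pass the F-test without the block (Kcna1, Kcna2, Kcna3, Kcna6 and Scn1a), with Kcna1 alone under an unadjusted 0.05. For each of the 9 genes with a passed difference, the nearest tested gene on either side was looked up. Between 0 and 62 other coding genes lay between a gene and its neighbour. None of these 18 neighbours passed the F-test, with adjusted p-values of 0.35 to 0.99. Of all tested probe sets 4.58% passed, so an absence among 18 is near that share and says little about the neighbours.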

How the data were processed

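The authors deposited 1 linear intensity (signal) for every probe set on each of 32 arrays. MAS5, of no stated version, made them per the submitters' processing notes. The sources used here give neither a scaling target nor detection calls. After trimming 2% at either end, array means were 100.05 to 100.07, so arrays were taken as scaled. Channel genes, lists, tests and alternatives were chosen with earlier results of these data known. Strains came from the sample titles. All 84 channel probe sets matched RefSeq genes (GRCm38.p6) by Entrez number.

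Control probe sets were dropped (66 of 12488). A floor of 1 was applied to the signal (2.14% of values), log2 was taken, and the 60% with the highest mean (7453) were tested. The 2 arrays of a preparation were averaged, and 16 values were fitted with limma 3.58.1 in R 4.3.3 (strain means, eBayes with a trend). P-values of the moderated F-test and of every strain's contrast with the average of the remaining 7 were adjusted by Benjamini-Hochberg over all 7453, with a threshold of 0.05. The fit was checked on simulated data.

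Preparation numbers pair the samples by the series design. The difference between preparations correlated in all 28 pairs of strains (r from 0.109 to 0.557, and 0.301 or more without BALB/cByJ). No arrays held identical values.

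Probe sets are named with values where they passed a test, passed the F-test only with the block, belong to the 3 genes of widest range in their ion group, or read the same gene. Ranges and p-values of other tested members are given in short. Alternatives covered normalization, offsets of 16 and 64, the filter, the block, single arrays, the variance trend, the sense-strand control, strains left out, and each array and preparation left out. Those on the 11 arrays of high control signal and on array 2 of FVB/NJ were chosen after the data were seen.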

Additional observations from a re-analysis of the deposited data

Results flagged for a closer look

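In the 9 probe sets with a passed difference, 72 groups of 4 arrays were examined for a single array that stood far from the other 3 of its strain, and 5 were found. Chance gives about 1 in 20 groups. For Kcnab2 102892_at, array 2 of C3H/HeJ read 9.97 and the other 3 read 9.76 to 9.79. For Kcnma1, array 3 of A/J read 8.51 against 8.13 to 8.16, and for Clcn4 99672_at, array 2 of A/J read 8.54 against 8.70 to 8.73. Array 1 of FVB/NJ, which carries a high sense-strand control signal, read 7.05 for Scn1a 162255_s_at against 7.73 to 7.84. For Kcnk7, array 2 of C3H/HeJ read 3.61 against 5.09 to 5.38.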

How the results depend on the processing

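The reported fit gave 4 channel probe sets past the F-test, 10 strain differences and 2 related genes (brightest probe set of each). The replicate block, with the preparation number as the pairing, gave 15, 31 and 13, and the 4 were among the 15. Single arrays with the preparation as a random block gave 7, 16 and 7, and with the title day as a block 21, 34 and 21. Median centring gave 5 related genes. With the sense-strand control as a covariate 3 strain differences passed. Without BALB/cByJ the counts were 2, 3 and 1, and without the 11 arrays of high control signal, which removes BALB/cByJ, they were 2, 2 and 1. Leaving out 1 array or 1 preparation gave 3 to 5, 5 to 15 and 2 to 3. The difference of DBA/2J from BALB/cByJ on Scn1a 94201_at turned from 1.08 to -0.033 with the covariate, and among the other distances between highest and lowest strain of the named probe sets, and the 10 passed differences, none changed sign. Other contrasts printed with an adjusted p were run only with and without the block. The differences of Clcn3 (61 alternatives), Clcn4 and Kcnab2 (63 each) from the other strains kept their direction and passed throughout. The causes of these changes were not tested. With 2 preparations of 1 pool for each strain, differences between animals cannot be assessed.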
